A study of Homo sapiens with 9 samples.

Results

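LAN-1, an established human neuroblastoma cell line, was measured after freezing, thawing and a second density gradient and was compared with the same line processed fresh. Of the 9 arrays in the series, 6 enter this comparison, 3 labelled frozen with gradient and 3 labelled fresh, chosen by their titles. In both conditions LAN-1 cells were spiked into tumor-free bone marrow, mononuclear cells were separated on a Lymphoprep gradient, and LAN-1 cells were recovered with magnetic beads through GD2, a ganglioside on the neuroblastoma surface. In the frozen condition the mononuclear cells were kept in 20% DMSO at -80°C for a week, thawed and passed through the gradient once more before the bead step. The fresh cells went to the bead step and into TRIzol at once. The other 3 arrays, labelled frozen without the second gradient, entered the choice of probe set and the estimate of the spread, and a few of their values are given for comparison. Conditions are named by the deposited labels. The paper reports more altered genes with the second gradient than without it. Here, against fresh cells, the arrays labelled without it had more genes past the criterion defined below, 448 against 16. Whether the labels of the 2 frozen conditions are the right way round could not be settled from the sources used here. Throughout, "with gradient" therefore stands for the arrays so labelled. From 100 ng of total RNA each sample gave 1 PrimeView array, read as log2 RMA signal, a background-corrected, quantile-normalized and probe-summarized value per probe set. The labels do not say whether arrays with the same replicate number came from the same marrow, so that a p-value measures only the spread between these arrays.

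A density gradient separates cells by buoyancy. Mononuclear cells stay at the interface, whereas red cells and mature granulocytes pass through it. Platelets are small and light and can remain with the mononuclear layer. RNA of these marrow cells can therefore accompany LAN-1 RNA in a bead-enriched sample, and in bulk RNA fewer cells of a type and less RNA per cell cannot be told apart. Neuroblastoma cells are of sympathoadrenal origin and are known by catecholamine enzymes, chromogranins and a set of transcription factors that includes GATA3, PHOX2A and HAND2.

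The defining neuroblastoma markers were measured at unequal levels. Every percentile given here ranks a gene by a single probe set, picked for its variation over the arrays and not for its signal. For a gene with several probe sets the percentile therefore depends on this choice, as the MYCN probe sets below show, and need not reflect its expression level. CHGA, which encodes the secretory granule protein chromogranin A, had a log2 signal of 12.78, 12.99 and 12.45 in the frozen with gradient arrays and of 12.93, 13.21 and 12.44 in the fresh arrays. The values overlapped, and their mean lay at percentile 99.7 of all genes with gradient and 99.8 in fresh cells. GATA3, a transcription factor of the noradrenergic state, had 9.12, 11.61 and 12.27 with gradient and 10.63, 11.43 and 12.37 in fresh cells. MYCN, DBH and STMN2 were above percentile 83 in both conditions, TH was at 60.6 with gradient and 65.2 in fresh cells, HAND2 at 52.9 with gradient and 56.2 in fresh cells, and ISL1 at 44.9 with gradient and 48.1 in fresh cells. Markers of marrow cells were also present. PTPRC, which encodes the leukocyte antigen CD45, lay at percentile 17.8 with gradient and 21.6 in fresh cells, but the neutrophil gene S100A8 lay at 89.9 with gradient and 96.6 in fresh cells and LYZ, the lysozyme of myeloid cells, at 89.4 with gradient and 81.6 in fresh cells. HBB, the beta-globin gene of red cells, lay at percentile 96.2 with gradient and 99.4 in fresh cells on its most variable probe set. Its other probe sets, given below, had lower signals in both conditions.

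Labelling starts at the 3' end of an RNA, so that a large 3' minus 5' difference of a control transcript stands for little labelled RNA at the 5' end, and this measure varied more within the conditions than between them. For GAPDH, a glycolytic enzyme with control probe sets at both ends, the 3' signal exceeded the 5' signal by 6.73, 2.90 and 2.07 on the log2 scale in the frozen with gradient arrays and by 4.92, 3.56 and 1.56 in the fresh arrays. Replicate 1 had the widest gap in both conditions and replicate 3 the narrowest. The means were 3.90 ± 2.49 with gradient and 3.35 ± 1.69 in fresh cells (SD, n = 3 each), a difference of 0.55 (exact permutation test, two-sided, p = 0.8, where 0.1 is the smallest that 3 against 3 arrays allow). The gap came from the 5' end: the GAPDH 5' signal was 6.61, 10.61 and 11.62 with gradient and 8.56, 10.03 and 12.20 in fresh cells, whereas the 3' signal ran between 13.3 and 13.8 on all of these arrays.

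The same order was seen for RNAs that no cell makes. The mean 3' minus 5' difference of 4 bacterial poly-A control RNAs (dap, lys, phe and thr) was 5.17, 3.14 and 2.16 with gradient and 3.84, 2.87 and 1.93 in fresh cells, which differed by 0.61 (exact permutation test, two-sided, p = 0.6). ACTB, a cytoskeletal actin, differed least, with 5.29, 4.85 and 4.24 with gradient and 5.28, 5.41 and 3.88 in fresh cells (exact permutation test, two-sided, p = 0.9). For all of these measures the conditions overlapped, and frozen with gradient replicate 1 had the highest GAPDH and the highest bacterial mean of the 6 arrays.

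**Figure D1:**
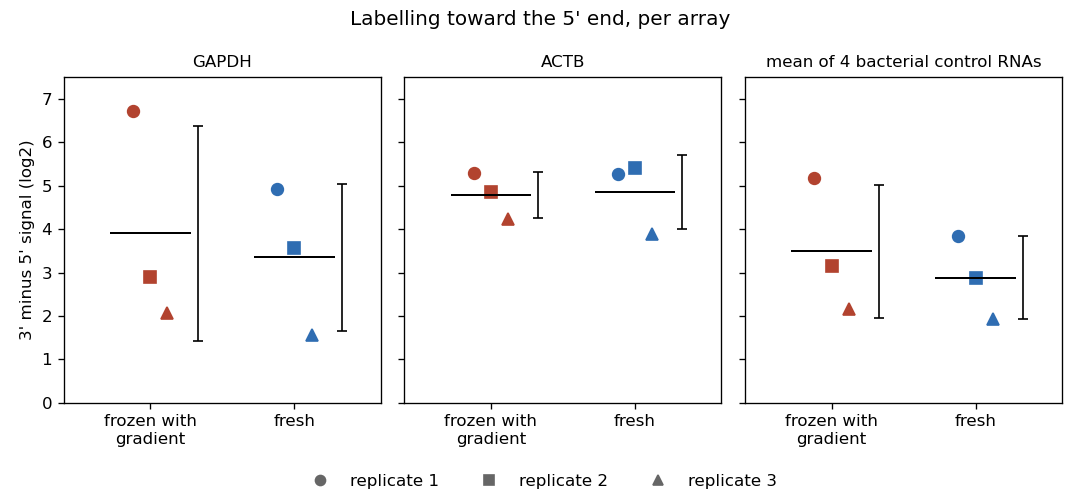
Difference between the 3' and 5' control probe sets (y axis, log2) on each array, for GAPDH, ACTB and the mean of 4 bacterial control RNAs. Points are arrays, shaped by replicate number, horizontal lines are means and bars are SD (n = 3). Replicate 1 with gradient is the highest GAPDH point at 6.73, and the conditions overlap in every panel.

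The spread over arrays was wider with gradient than in fresh cells, with gradient replicate 1 the array furthest from the others with gradient. Across 18132 genes, a frozen with gradient array and the fresh array of the same number correlated with a Pearson r of 0.942, 0.988 and 0.995 for replicates 1, 2 and 3. These are correlations across genes, which are not independent replicates. Within the frozen with gradient condition r ran between 0.871 and 0.987, and within the fresh condition between 0.939 and 0.980. The 0.987 was between gradient replicates 2 and 3, above every fresh pair, whereas gradient replicate 1 correlated with them at 0.909 and 0.871. The median SD of a gene over 3 arrays was 0.327 with gradient and 0.232 in fresh cells, and 1278 genes (7.05%) with gradient and 434 genes (2.39%) in fresh cells had an SD over 1.

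Read within a replicate number, freezing with gradient gave 3 different pictures. In replicate 1, 383 genes were higher and 1412 lower with gradient by over 1 on the log2 scale, 9.90% of genes. In replicate 2 the counts were 71 higher and 44 lower (0.634%), and in replicate 3 they were 4 higher and 13 lower (0.0938%). Replicate 1 also had the widest shift of the GAPDH 3' minus 5' difference between its 2 arrays, 1.81, against -0.66 in replicate 2 and 0.51 in replicate 3. In addition, probe sets of the same gene differed most from each other there: the median SD between the differences of a gene's probe sets was 0.311, 0.204 and 0.133 for replicates 1, 2 and 3. The part of labelling in these counts was not tested.

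**Figure D2:**
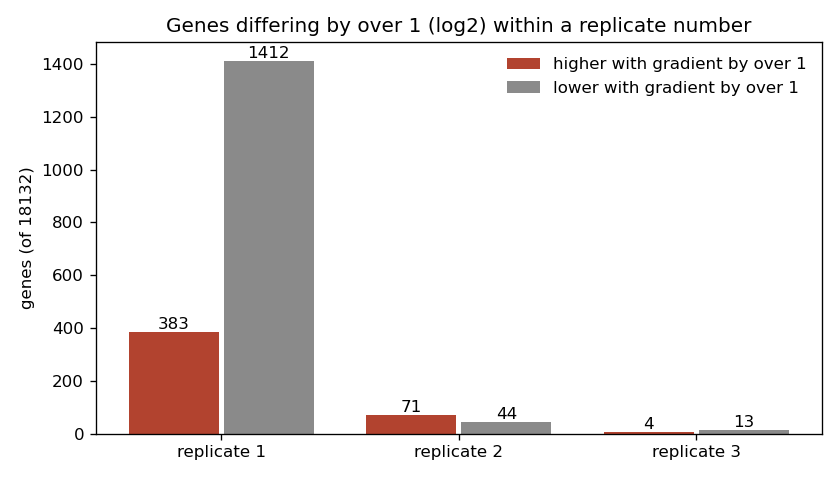
Number of genes, of 18132, whose signal was higher or lower with gradient than in the fresh array of the same replicate number by over 1 on the log2 scale (y axis). The counts are 383 and 1412 in replicate 1, 71 and 44 in replicate 2, and 4 and 13 in replicate 3.

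Only 2 genes (0.0110% of those tested) differed by over 1 in the same direction within all 3 replicate numbers, a red cell transcript and a platelet transcript. HBB was lower with gradient by 1.43, 2.21 and 2.62 in replicates 1, 2 and 3. PPBP, which encodes a chemokine stored in platelet granules, was higher with gradient by 1.09, 1.21 and 2.18. The count stayed at 2 with the probe set of highest mean, with cyclic loess and among genes of mean log2 signal of at least 5.

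HBB was the gene with the largest decrease in frozen cells with gradient. On its most variable probe set, 11715347_s_at, the log2 signal was 9.33, 9.97 and 10.10 with gradient and 10.76, 12.18 and 12.72 in fresh cells. All 3 arrays with gradient lay below all 3 fresh arrays, at a difference of -2.09 ± 0.91 (SE), 4.25-fold on the linear scale (limma, unadjusted p = 0.048, adjusted p = 0.857). Here a gene or probe set is said to have passed the criterion, and to have risen or fallen, where its log2 difference exceeds 1 in size and its p before adjustment is under 0.05. No gene had an adjusted p under 0.05, so each such call is open to the number of genes tested. Lack of overlap between the conditions was itself found in 6.79% of genes.

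The other HBB probe sets showed the same decrease. Probe set 11753712_x_at had 6.33, 6.70 and 7.04 with gradient and 7.52, 9.05 and 9.96 in fresh cells, a difference of -2.15 ± 0.65 (SE). Probe set 11715348_x_at had 7.87, 8.17 and 8.29 with gradient and 8.76, 9.65 and 10.80 in fresh cells, a difference of -1.62 ± 0.51 (SE). Neither overlapped between conditions (limma, unadjusted p = 0.0098 and 0.012, adjusted p = 0.826 for both). Both stayed past the criterion in all 9 fits with 1 array left out, with differences of -2.81 to -1.59 and of -2.11 to -1.09. The call on 11715347_s_at was lost in 6 of these fits, namely without gradient replicate 1 (-1.85), gradient replicate 2 (-2.17), gradient replicate 3 (-2.24), fresh replicate 2 (-1.94), fresh replicate 3 (-1.67) or replicate 3 without gradient (-2.09), with no change of direction. It was also lost with cyclic loess (-1.97) and among genes of mean log2 signal of at least 5 (-2.09), in both through its p. Leaving out replicate 1 of both conditions together, where no gene fell, lost this call as well.

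No other erythroid gene in the gene test passed the criterion, which 0.0882% of all genes passed. Of 10 measured genes on the erythroid list, HBB fell, no gene rose and 9 did not pass, with a median difference of 0.05, against 0.02 over all genes tested. ALAS2, the first enzyme of erythroid heme synthesis, differed by 0.43, and SLC4A1, the anion exchanger of the red cell membrane, by 0.48. The alpha-globin probe set names more than 1 gene, and the delta-globin probe sets repeat the symbol HBD. This kept them out of the gene test. They are given further below, and HBD passed on 11725439_at (-1.02).

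A granulocyte transcript fell. MMP9, a gelatinase stored in neutrophil granules, had 4.12, 4.25 and 3.86 with gradient and 6.76, 4.67 and 4.76 in fresh cells. Fresh replicate 1 was far above the other fresh arrays, and the conditions did not overlap. MMP9 fell by 1.32 on the log2 scale (limma, unadjusted p = 0.025, adjusted p = 0.857). Without fresh replicate 1 the difference was -0.64, and without gradient replicate 3 it was -1.21 with an unadjusted limma p of 0.067, so that either array decided the call.

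The calgranulins, calcium-binding proteins that fill the neutrophil cytoplasm, had wide differences that did not pass in the model of all 9 arrays. S100A8 had 8.57, 9.91 and 7.20 with gradient and 11.80, 9.29 and 9.20 in fresh cells, a difference of -1.54 (limma, unadjusted p = 0.134). S100A9 differed by -1.37 (limma, unadjusted p = 0.122) and S100A12 by -1.36 (limma, unadjusted p = 0.059). In each, fresh replicate 1 was the highest array and the conditions overlapped. S100A12 passed without fresh replicate 2 (-1.81), without fresh replicate 3 (-1.75), with cyclic loess (-1.41) and with GAPDH labelling in the model (-1.56). S100A9 passed without gradient replicate 2 (-2.07). Over all alternatives S100A8 ran between -2.21 and 0.11, S100A9 between -2.07 and 0.38 and S100A12 between -1.81 and -0.53. The direction of S100A8 and S100A9 thus depended on the processing. Of 27 measured granulocyte genes, MMP9 fell, none rose and 26 did not pass, beside 0.0882% of all genes past the criterion. The median of these granulocyte genes was -0.06. The precursor gene MPO, a peroxidase made in promyelocytes, differed by 0.41.

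No platelet transcript passed in the model of all 9 arrays. PPBP had 6.19, 8.28 and 7.31 with gradient and 5.10, 7.07 and 5.13 in fresh cells. Replicate 2 was the highest array in both conditions, so that the conditions overlapped although each replicate number had a higher value with gradient. The difference was 1.49 ± 0.76 (SE, limma, unadjusted p = 0.081), which did not pass. It passed without gradient replicate 1 (2.03), without fresh replicate 2 (2.14) and with array weights (1.28). PF4, platelet factor 4, which is stored in the same granules, had 6.46, 7.68 and 6.88 with gradient and 5.57, 7.06 and 5.50 in fresh cells, a difference of 0.96 (limma, unadjusted p = 0.115). Both were higher with gradient in 3 of 3 replicate numbers, and PF4 passed without fresh replicate 2 (1.47). TUBB1, the platelet beta-tubulin, differed by 0.56, ITGA2B, the integrin alpha subunit of the fibrinogen receptor, by 0.35, and SELP, which encodes P-selectin, by 0.04. None of the 10 measured platelet and megakaryocyte genes passed, beside 0.0882% of all genes, and the median was 0.32. The mean log2 signal over the list was 5.59, 6.0 and 5.51 with gradient and 5.24, 5.66 and 4.89 in fresh cells.

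**Figure D3:**
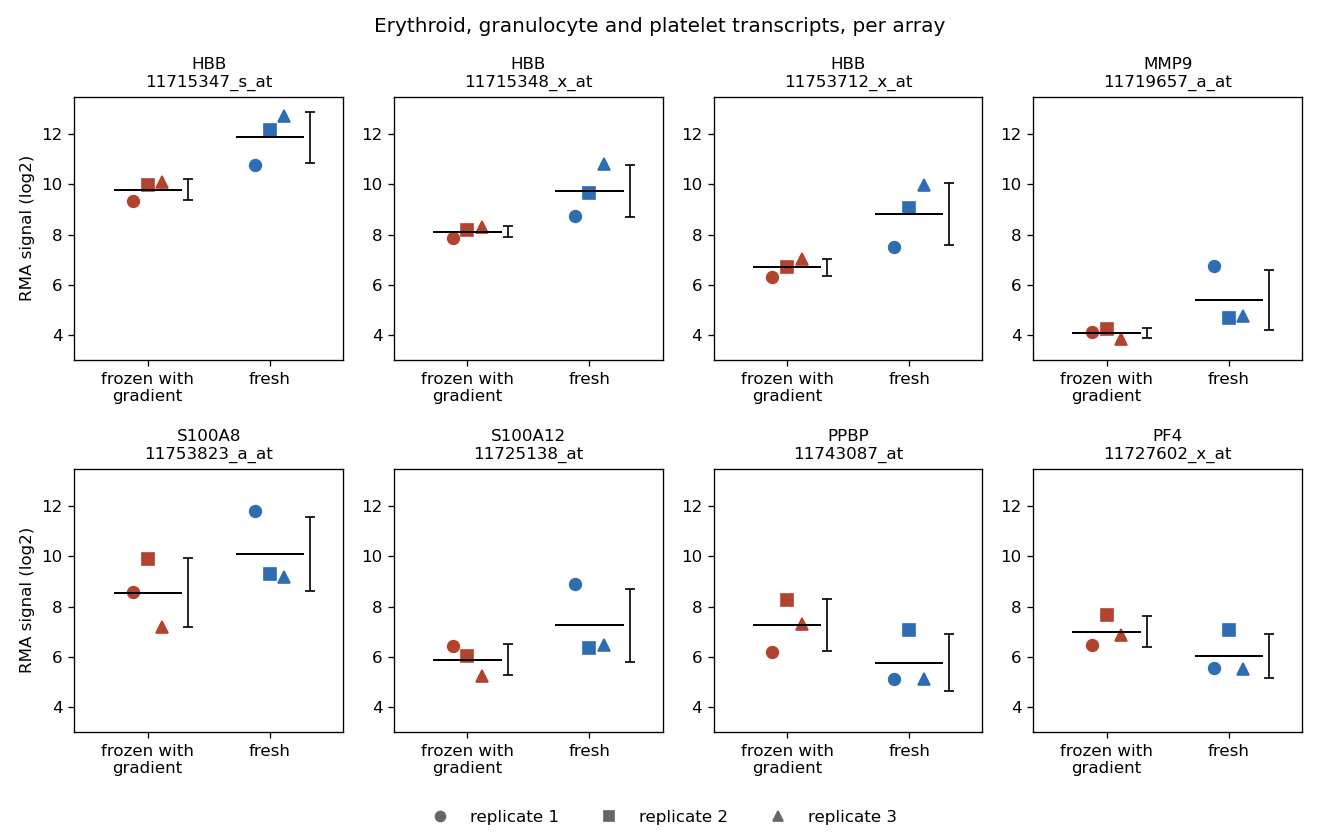
RMA signal (y axis, log2) on each array for 3 HBB probe sets, MMP9, S100A8, S100A12, PPBP and PF4. Points are arrays, shaped by replicate number, horizontal lines are means and bars are SD (n = 3). The 3 HBB panels have all arrays with gradient below all fresh arrays, whereas PPBP is higher with gradient within each replicate number.

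Values of the arrays labelled without the second gradient stand beside these, with the fresh arrays shared by both comparisons. The 2 frozen conditions are set side by side as labelled, and the doubt about their labels applies here too. HBB differed from fresh by -2.09 with gradient and by -3.97 without it, and S100A8 by -1.54 and -3.43. PPBP differed from fresh by 1.49 with gradient and by -0.19 without it. Set directly against each other, with minus without gradient, HBB differed by 1.88 (limma, unadjusted p = 0.069, adjusted p = 0.253) and PPBP by 1.69 (limma, unadjusted p = 0.054, adjusted p = 0.249). Neither passed.

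Lymphoid, monocyte and pan-leukocyte markers had no member past the criterion, which 0.0882% of all genes passed. In lists of this size the lack of a call therefore says little about the cell types. The median was 0.29 over 19 T and NK cell genes and 0.32 over 12 B and plasma cell genes, and 0.02 over 19 monocyte and macrophage genes. With the probe set of the highest mean for each gene these medians were 0.16, 0.19 and 0.15. FCGR3A, an Fc receptor of monocytes and NK cells, differed by -0.59 and C1QB, a complement subunit made by macrophages, by -0.71, with unadjusted limma p of 0.0033 and 0.0063, but neither reached a difference of 1. The mean log2 signal over 10 pan-leukocyte genes was 4.89, 4.89 and 4.26 with gradient and 4.79, 4.44 and 4.34 in fresh cells. IGLV3-10, an immunoglobulin lambda variable segment expressed by B and plasma cells, rose. Its only probe set had 6.29, 5.17 and 4.94 with gradient and 4.48, 4.50 and 4.18 in fresh cells, a difference of 1.08 with no overlap. It did not pass without gradient replicate 1 (0.66), without fresh replicate 3 (0.98) or with cyclic loess (0.93).

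In the gene test as a whole, 16 of 18132 genes passed (0.0882%), of which 7 rose (0.0386%) and 9 fell (0.0496%). The split was 5 against 11 with median centring, 5 against 13 with quantile normalization and 4 against 11 with cyclic loess. It was 4 against 15 with the GAPDH labelling measure added to the model, with 10 of the 16 genes shared, and 44 against 20 with array weights, with 6 shared. The same criterion was passed by 448 genes in the arrays labelled without gradient against the fresh arrays. Adjusted p was under 0.05 for 0 genes in limma, with 0.857 the lowest, while 662 genes (3.65%) had an unadjusted p under 0.05. In 1231 genes (6.79%), 693 higher and 538 lower with gradient, the arrays of the conditions did not overlap, and 11 of the 16 were among these. Full separation of 3 against 3 arrays reaches only p = 0.1 in a two-sided exact permutation test. Lack of overlap in a single gene is therefore weak evidence of a change. The count depended on single arrays: it was 9 without gradient replicate 1, 29 without gradient replicate 2, 190 without gradient replicate 3 and 44 without fresh replicate 3. Leaving out replicate 1 of both conditions, an alternative chosen after seeing the data, left 2 genes.

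Per probe set, 21 of 44988 passed (0.0467%), 9 higher and 12 lower, again with 0 at an adjusted limma p under 0.05 and 2132 at an unadjusted p under 0.05. These probe sets belonged to 19 genes. HBB, MMP9, ND1 and IGLV3-10 were the genes whose probe sets all passed, and MMP9, ND1 and IGLV3-10 had a single probe set each. In 15 of the 16 genes with several probe sets, 1 probe set passed and the others did not. The 40 other probe sets of these genes had a median absolute difference of 0.19, and 0 of them differed by over 1. In 8 of the 9 higher probe sets, gradient replicate 1 was the highest of the arrays with gradient. In 10 of the 12 lower ones it was the lowest of these arrays.

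**Figure D4:**
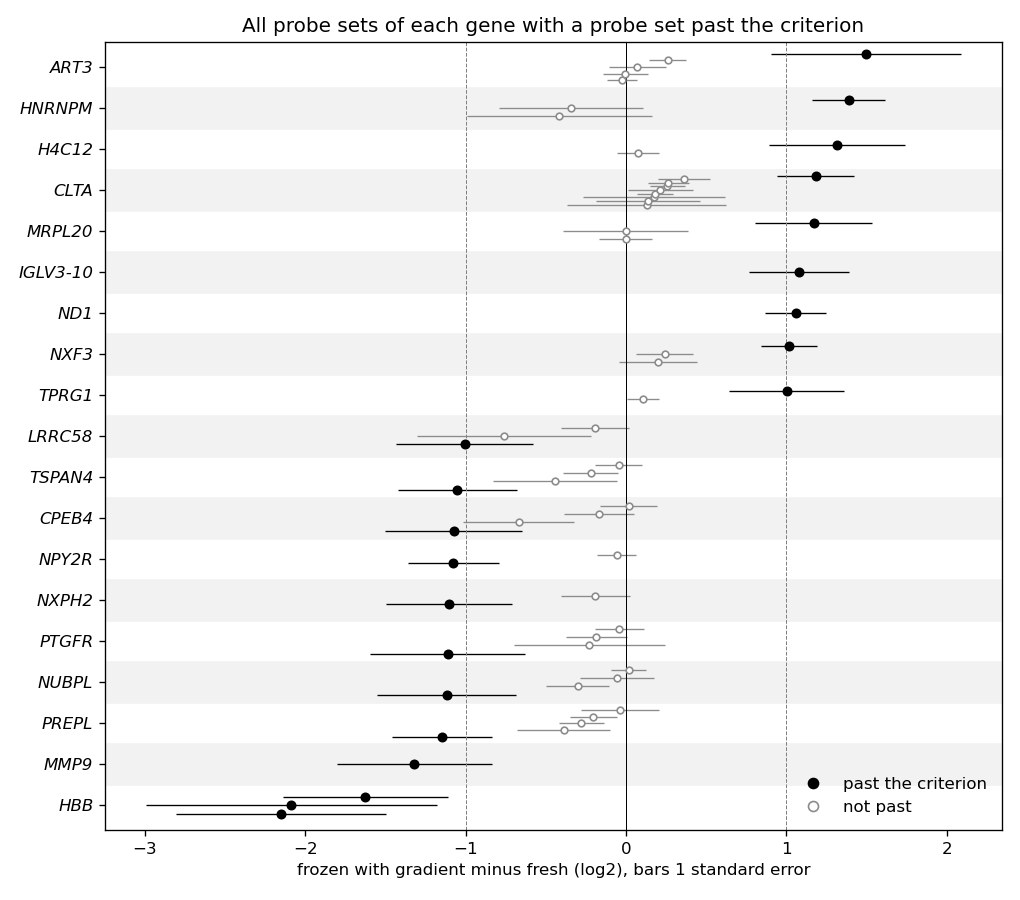
Log2 difference, frozen with gradient minus fresh (x axis), for every probe set of the 19 genes with a probe set past the criterion (filled points), with 1 standard error. Dashed lines mark -1 and 1. All 3 HBB points are filled, whereas the open points of the other genes lie nearer to 0 than the filled one.

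Of the genes that fell, NPY2R, NXPH2 and PTGFR encode receptors or a secreted ligand. NPY2R, a receptor for neuropeptide Y, had 5.99, 6.25 and 5.73 with gradient and 7.25, 7.48 and 6.46 in fresh cells on 11735784_at, a difference of -1.08 ± 0.29 (SE) with no overlap. Its second probe set differed by -0.06. The call was lost without gradient replicate 3 (-0.95), fresh replicate 1 (-0.98) or fresh replicate 2 (-0.87). NXPH2, a neurexophilin that binds neurexins, had 5.62, 5.67 and 6.73 with gradient and 6.80, 7.17 and 7.37 in fresh cells, a difference of -1.10, against -0.19 on its other probe set. It did not pass without gradient replicate 1 (-0.91), gradient replicate 2 (-0.94), fresh replicate 2 (-1.07) or fresh replicate 3 (-0.98). PTGFR, the prostaglandin F receptor, differed by -1.11 on 1 of 4 probe sets, its arrays overlapped, and it passed in 2 of the 9 fits with 1 array left out (-1.46 to -0.62).

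The remaining genes that fell each did so on 1 probe set, where gradient replicate 1 was the lowest of the arrays with gradient. PREPL, a serine hydrolase related to prolyl endopeptidase, had 3.88, 4.73 and 5.29 with gradient and 6.04, 5.73 and 5.56 in fresh cells, a difference of -1.14. The other 4 PREPL probe sets differed by -0.39 to -0.04. NUBPL, an assembly factor of respiratory complex I, differed by -1.12, CPEB4, a cytoplasmic polyadenylation element binding protein, by -1.07, and TSPAN4, a tetraspanin, by -1.05, with overlap in all of them. One probe set of LRRC58, a leucine-rich repeat gene, differed by -1.01, beside -0.76 and -0.19 on its other probe sets. Without gradient replicate 1, PREPL differed by -0.77, NUBPL by -0.55, CPEB4 by -0.56 and TSPAN4 by -0.66, and none of these passed. Leaving out a fresh array also ended the calls of NUBPL (replicate 2, -1.13, and replicate 3, -0.97), CPEB4 (replicate 1, -1.07, and replicate 3, -0.86) and TSPAN4 (replicate 3, -0.96), and leaving out gradient replicate 2 that of TSPAN4 (-1.0). The LRRC58 probe set passed in 1 of the 9 fits.

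Among genes that rose, ND1 was the most abundant. ND1 is a complex I subunit encoded in mitochondrial DNA. Its probe set 11761515_s_at had 13.71, 14.20 and 13.86 with gradient and 12.66, 12.70 and 13.24 in fresh cells, a difference of 1.06 ± 0.20 (SE) with no overlap (limma, unadjusted p = 0.0006, adjusted p = 0.857). The call was lost without gradient replicate 2 (0.92), fresh replicate 1 (0.95) or fresh replicate 2 (0.98) and with quantile normalization (0.95), each time because the difference was under 1.

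Both other mitochondrially encoded transcripts measured were also higher with gradient on every array, without passing. COX3, a cytochrome c oxidase subunit, had 13.82, 13.57 and 12.95 with gradient and 12.93, 12.95 and 12.34 in fresh cells on 11762921_at, a difference of 0.71, and the nearest arrays of the conditions were less than 0.01 apart. ND4, another complex I subunit, had 14.96, 14.89 and 14.76 with gradient and 14.68, 14.66 and 14.58 in fresh cells, a difference of 0.23. These transcripts lay near the top of the signal range of the arrays. Over all alternatives the difference ran between 0.44 and 0.96 for COX3 and between 0 and 0.29 for ND4. Nuclear-encoded respiratory chain genes had a median of 0.03 over 29 genes and none passed, beside 0.0882% of all genes.

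A probe set annotated to HNRNPM, an hnRNP splicing protein, is derived in the platform annotation from the same source sequence as that of ND1. This probe set, 11761516_x_at, had 13.21, 12.81 and 12.36 with gradient and 11.28, 11.28 and 11.66 in fresh cells, a difference of 1.39 ± 0.23 (SE) that stayed past the criterion in all 9 fits with 1 array left out. The other HNRNPM probe sets differed by -0.34 and -0.42. The HNRNPM probe set therefore is read as uncertain in its gene.

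The other genes that rose had low signals or a single deviating probe set. ART3, an ADP-ribosyltransferase family member, had 8.86, 7.04 and 6.23 with gradient and 6.49, 5.85 and 5.30 in fresh cells on 11748582_a_at, a difference of 1.5, while its other 4 probe sets differed by -0.03 to 0.26. H4C12, a replication-dependent histone H4 gene, had 10.12, 8.87 and 8.20 with gradient and 7.95, 7.88 and 7.42 in fresh cells, a difference of 1.31, beside 0.07 on its second probe set. MRPL20, a mitochondrial ribosomal protein, had 9.02, 7.72 and 7.42 with gradient and 7.18, 6.86 and 6.62 in fresh cells. In each of these 3 genes gradient replicate 1 was the highest array, and gradient replicate 3 was the lowest with gradient.

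MRPL20 rose by 1.17 on 11758769_at, whereas its 2 other probe sets, one of them with a mean signal of 11.29 with gradient, differed by less than 0.01 each. NXF3, an mRNA export factor homolog, differed by 1.01 and TPRG1 by 1.002 on 1 probe set each. A probe set of CLTA, the clathrin light chain A, had 8.11, 7.73 and 7.15 with gradient and 6.64, 6.64 and 6.15 in fresh cells, a difference of 1.18 with no overlap. The other 8 CLTA probe sets were higher by 0.13 to 0.36. Without gradient replicate 1, ART3 differed by 0.75, H4C12 by 0.79, MRPL20 by 0.69, IGLV3-10 by 0.66, NXF3 by 0.84, TPRG1 by 0.52 and the CLTA probe set by 0.96, and none passed. ART3 did not pass without fresh replicate 2 (1.48) or fresh replicate 3 (1.21) either, nor NXF3 without fresh replicate 2 (0.99) and TPRG1 without fresh replicate 3 (0.93). With cyclic loess both NXF3 and TPRG1 differed by 0.88 and did not pass.

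Neuroblastoma identity genes had no member past the criterion. Since only 0.0882% of all genes passed, a count of 0 says little about this list. Of 25 measured noradrenergic genes, 0 rose and 0 fell, with a median of -0.19, and the medians within replicate numbers 1, 2 and 3 were -0.38, -0.09 and -0.09. PHOX2A, a homeodomain factor of sympathetic neurons, had 9.34, 9.86 and 9.86 with gradient and 10.07, 10.16 and 10.13 in fresh cells. It differed by -0.44 with no overlap (limma, unadjusted p = 0.043) and did not reach 1. The enzymes TH, DBH and DDC of catecholamine synthesis differed by -0.37, -0.18 and -0.12.

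MYCN, the oncogene amplified in many high-risk neuroblastomas, showed how far a gene's value depended on its probe set. On the most variable one, 11750948_a_at, the signal was 6.38, 9.87 and 10.41 with gradient and 8.14, 9.45 and 11.11 in fresh cells, a difference of -0.68 ± 1.04 (SE). On 11719869_a_at it was 13.48, 13.66 and 13.49 with gradient and 13.48, 13.63 and 13.46 in fresh cells, a difference of 0.02. The first followed the order of the GAPDH 5' signal within each condition, and the second ran between 13.46 and 13.66.

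The heat shock, cold-inducible and immediate early lists had no member past the criterion in the gene test either. With 0.0882% of all genes past it, this says little about these lists. Probe sets shared by 2 HSP70 genes did pass, as given below. Among 18 heat shock genes the median was -0.17. HSPA1B, an inducible HSP70, had 9.60, 10.95 and 11.02 with gradient and 11.89, 11.33 and 11.24 in fresh cells, a difference of -0.96 with no overlap (limma, unadjusted p = 0.027). It passed without gradient replicate 2 (-1.18), gradient replicate 3 (-1.21), fresh replicate 2 (-1.04) or fresh replicate 3 (-1.09). HSPA13 differed by -0.69, without overlap, on 1 of 4 probe sets. The cold-inducible RNA-binding genes CIRBP and RBM3 differed by -0.33 and -0.19, and the median of 6 genes of that list was -0.24.

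Immediate early genes, which respond to stimuli within minutes, had a median of 0.03 over 25 genes. JUN had 6.79, 7.75 and 7.04 with gradient and 8.63, 8.27 and 7.57 in fresh cells, a difference of -0.96 that passed without gradient replicate 2 (-1.24) or fresh replicate 3 (-1.25), whereas FOS differed by -0.01. FOSL1 had 5.88, 5.76 and 5.57 with gradient and 5.46, 5.18 and 4.97 in fresh cells, a difference of 0.53 with no overlap. KLF6 differed by -0.94, with gradient replicate 1 its lowest array at 5.39, and passed without gradient replicate 2 (-1.16) or gradient replicate 3 (-1.33).

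Beside the 0.0882% of all genes, 5 of 29 gene lists had a member past the criterion, 1 gene each: HBB, MMP9, ND1 of 3 mitochondrially encoded genes, MRPL20 of 74 mitochondrial ribosomal genes and H4C12 of 61 histone genes. With the most variable probe set, the lists with the lowest medians were those for neurite and cytoskeleton genes (-0.29, 25 genes), translation factors (-0.28, 35 genes) and splicing factors (-0.25, 50 genes). With the probe set of the highest mean these medians were -0.22, -0.13 and -0.12. In all of these lists, with the most variable probe set, the median within replicate 1 was lower than within replicates 2 and 3: it was -0.59, -0.81 and -0.62 in replicate 1 for the lists in that order. For translation factors it was 0.30 in replicate 2 and -0.25 in replicate 3. Cytosolic ribosomal protein genes, with short and abundant transcripts, had a median of 0.04 over 69 genes, and cell cycle genes of -0.21 over 27.

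**Figure D5:**
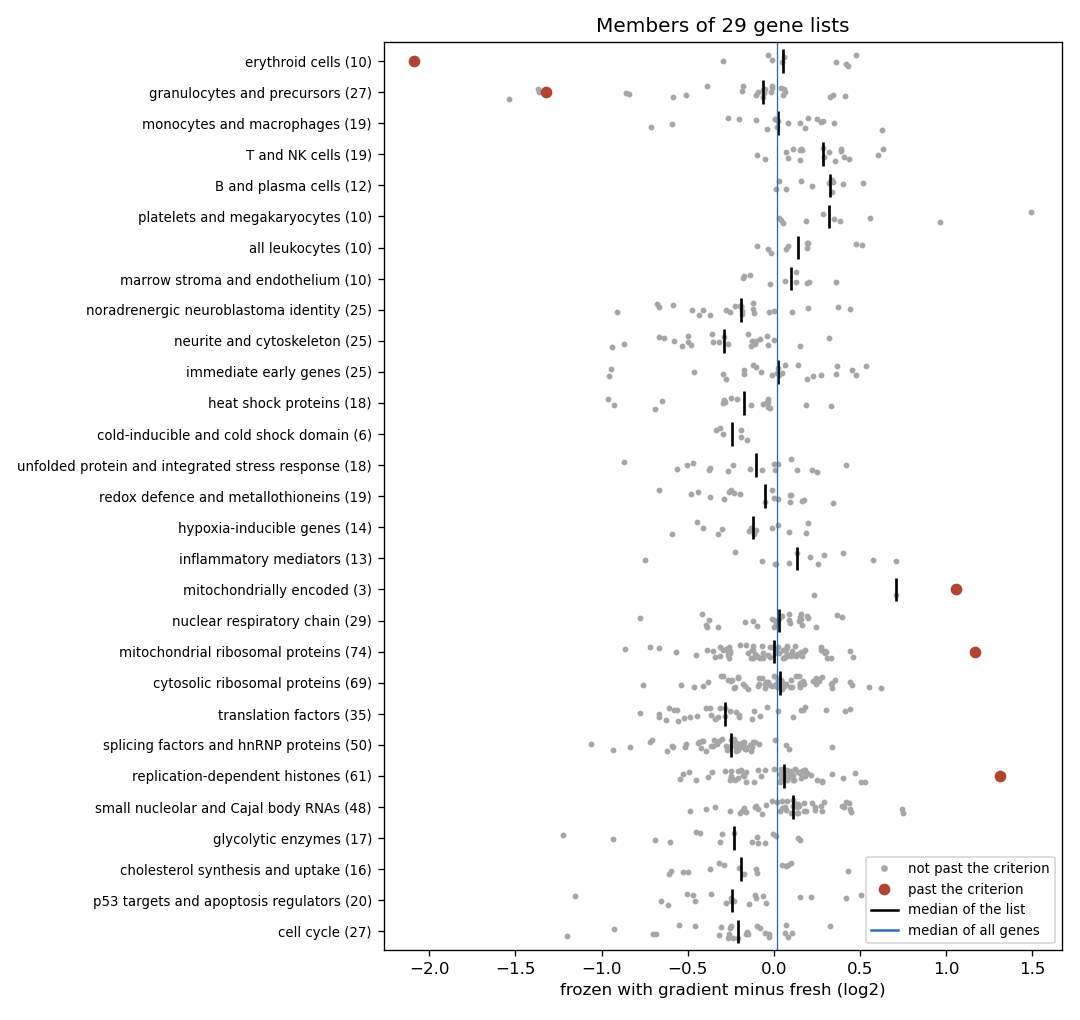
Log2 difference, frozen with gradient minus fresh (x axis), of each measured member of 29 gene lists, with the number of measured genes in parentheses. Gray dots are members not past the criterion, red dots those past it, black lines list medians and the blue line the median of all genes (0.02). HBB and MMP9 are the red dots on the left, and ND1, MRPL20 and H4C12 those on the right.

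Some probe sets of globin and stress genes have several entries in their symbol annotation and therefore stayed out of the gene tests. For HBD these entries are the same symbol repeated, so that its probe sets name a single gene. For HBD, delta-globin, 11725439_at had 4.27, 4.16 and 4.27 with gradient and 4.19, 6.07 and 5.50 in fresh cells, a difference of -1.02, whereas 11725438_a_at differed by 0.19. The alpha-globin probe set shared by HBA1 and HBA2 had 5.87, 5.30 and 5.64 with gradient and 5.50, 6.50 and 8.19 in fresh cells, a difference of -1.13 (limma, unadjusted p = 0.076) that did not pass. Probe sets shared by HSPA1A and HSPA1B, the paired inducible HSP70 genes, were lower by 1.10 on 11750411_x_at, with 8.34, 10.11 and 10.30 with gradient and 10.88, 10.50 and 10.68 in fresh cells. On 11757907_x_at they were 5.38, 4.90 and 4.11 with gradient and 7.13, 5.68 and 5.50 in fresh cells, a difference of -1.31. The arrays of the conditions did not overlap on either HSP70 probe set.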

How the data were processed

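The authors hybridized 1 PrimeView array per sample and computed RMA signals. The deposited values are log2 signals for 49395 probe sets on 9 arrays and entered the tests without further change. Raw intensities were not used here, and the background correction was not varied. Of the probe sets, 102 controls, 1832 with several symbol entries and 2473 with none stayed out of the gene tests. The several entries could be 1 symbol repeated, as for HBD. For 18132 genes 44988 probe sets remained, and each gene was represented by its most variable probe set over the 9 arrays. Of the remaining probe sets, 44961 matched a gene ID of the reference table. Tests used R 4.3.3 and limma 3.58.1 with 3 condition means over 9 arrays and Benjamini-Hochberg adjustment. Every probe set was tested in a second fit. Labelling differences were compared by exact permutation. The number of arrays, 3 per condition, limits the precision. The members and the 29 gene lists were chosen with earlier results of these data known. Genes named were up to 10 per direction past the criterion in either fit, 2 per list with the smallest p and cell type markers, and further members of the marrow, mitochondrial, neuroblastoma and stress lists were added after their values were seen. Alternatives covered the choice of probe set, centring, quantile and cyclic loess normalization, a mean log2 of at least 5, an intensity trend, array weights, a replicate block, the 6 arrays alone, a GAPDH covariate and each array left out. The procedure was tested on simulated data with independent noise for each gene and array. A deviating array was not simulated, so that this test does not bear on how far the counts depended on single arrays.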

Additional observations from a re-analysis of the deposited data

Results flagged for a closer look

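Outside the gene tests, 9 of the probe sets with several symbol entries or none passed the criterion in frozen with gradient against fresh cells. The gene counts do not use these data. Of 1832 probe sets with several symbol entries, 3 were higher and 4 lower with gradient (0.382%). Of 2473 with none, 2 were higher and 0 lower (0.0809%). Among those that passed, the HBD and SPANXB1 probe sets carry 1 symbol repeated, so that the first class is not limited to probe sets of several genes. The lower ones were those of HBD and of HSPA1A and HSPA1B given above and 1 shared by the macrophage chemokine genes CCL4, CCL4L1 and CCL4L2, which differed by -1.01. The higher ones included a probe set of the psoriasin genes S100A7 and S100A7A, with 7.77, 6.44 and 5.44 with gradient and 5.22, 4.94 and 5.01 in fresh cells, a difference of 1.5. The probe set 11761514_at, with no symbol, had 13.07, 12.16 and 11.66 with gradient and 10.49, 10.46 and 10.83 in fresh cells, a difference of 1.70. The probe set 11762525_s_at, also with no symbol, had 14.20, 13.73 and 12.99 with gradient and 12.98, 12.36 and 12.12 in fresh cells, a difference of 1.15.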

How the results depend on the processing

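The count of 16 genes was 4 with the mean of all probe sets, 9 among genes of mean log2 signal of at least 5, 64 with array weights estimated gene by gene, 25 with the replicate number as a block, 31 with the replicate block in the 6 arrays alone, and 0 at an adjusted p under 0.05. With array weights, 2329 genes had an adjusted limma p under 0.05, and 0 under every other alternative. With 1 array left out the count ran between 9 and 190 genes and between 16 and 266 probe sets, against 21, and the replicate block gave 36 probe sets. Leaving out replicate 1 of both conditions, added after seeing the data, gave 2 genes and 6 probe sets. The replicate numbers were not taken as pairs in the main fit, since the labels do not say whether they share a marrow. The deviations from the condition means correlated at 0.739, 0.00886 and 0.798 in replicates 1, 2 and 3. This was high in replicates 1 and 3 and low in replicate 2, and does not decide whether the arrays are pairs. Each array with gradient correlated best with the fresh array of its own number (r of 0.942, 0.988 and 0.995). The block kept 15 of the 16 genes and all 21 probe sets, and PPBP (1.49) and S100A12 (-1.36) passed with it. The GAPDH 3' minus 5' difference ran between -0.86 and 1.47 and the bacterial one between -0.23 and 1.27 with 1 array left out. MRPL20 was -0.0018 and HNRNPM 1.39 when the probe set with the highest mean stood for the gene, against 1.17 and -0.42. HSPH1, a heat shock protein, was 1.01 with array weights, against -0.03, and ran between -0.83 and 1.02 with 1 array left out.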
